A study of Mus musculus with 6 samples.

Results

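The genes described here encode the ubiquitin conjugating enzymes and the HECT ubiquitin ligases of the mouse. They were chosen by name: every protein-coding gene whose symbol begins with Ube2 (37 genes) and 22 HECT ligase genes, with Trip12 itself left out, which gave 59 members among the 55414 genes in each count table. Their levels were compared between pancreatic acinar cells with and without an intact Trip12 gene, to ask whether related enzymes move when Trip12 is lost.

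Ubiquitin is passed along a relay. An activating enzyme (E1) loads ubiquitin onto the active-site cysteine of a conjugating enzyme (E2), and a ligase (E3) brings the loaded E2 to a substrate. Most ligases only bring E2 and substrate together, whereas a HECT ligase first takes ubiquitin onto a cysteine of its own. Trip12 encodes a HECT ligase, so the E2 genes listed here include its possible partners and the HECT genes its relatives. Acinar cells make and secrete digestive enzymes, and protein that misfolds in their large endoplasmic reticulum (ER) is removed with the help of ER-bound E2 enzymes.

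All 6 libraries came from acinar cells of adult, untreated mice, 1 library per preparation. The 3 controls had the genotype Pdx1Cre;Trip12+/+ and the 3 knockouts Pdx1Cre;Trip12fl/fl, so both groups carried the Cre recombinase, driven by a promoter active in the pancreatic lineage, and only the knockouts carried the floxed alleles. Messenger RNA was selected by its poly-A tail and sequenced, and reads were counted per gene. The labels number the preparations as biological replicates without saying what the numbers mean, so p-values measure the spread between these preparations.

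The libraries held 31019500 to 34041901 gene counts. The targeted gene was checked first: Trip12 lay at 29, 22.3 and 26.4 CPM (counts scaled to library size and corrected for library composition) in controls 1, 2 and 3, and at 14.4, 14.7 and 13.0 CPM in knockouts 1, 2 and 3. Counts over a whole gene do not show which exons a floxed allele has lost. All 18 acinar markers were above 1 CPM in every library, and their summed level was 612000, 822000 and 799000 CPM in the controls against 498000, 523000 and 512000 CPM in the knockouts. These sums were divided by composition factors of 1.017, 0.7853 and 0.8085 in the controls and 1.193, 1.119 and 1.16 in the knockouts. They are therefore not shares of a library, and part of their difference comes from the factors. Xist and Y-linked counts showed that control replicate 1 and all 3 knockouts were male and that control replicates 2 and 3 were female. Genotype and sex can therefore be separated through 1 library only, so a fit with a sex term sets the knockouts against control replicate 1. Leukocyte markers summed to 103, 26.8 and 21.6 CPM in the controls and 74.6, 18.6 and 70.5 CPM in the knockouts. In such bulk libraries, fewer cells of a type and less RNA per cell cannot be told apart.

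E2 enzymes share a fold, while the base sequences of their genes have drifted apart. The stretch around the active site is shown for 5 of them, because the results below contrast some of these genes. It is coding sequence from the GENCODE M21 transcripts, written 5′ to 3′, and runs from the His-Pro-Asn codons, or the codons at their place in the Ube2j pair, to the codon after the active-site cysteine. Capitals mark those first codons and the cysteine codon. Ube2l3 and the Ube2d genes encode E2 enzymes that work with HECT ligases, and the Ube2j genes encode E2 enzymes of the ER membrane.
Ube2l3: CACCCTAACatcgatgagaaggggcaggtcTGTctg
Ube2d1: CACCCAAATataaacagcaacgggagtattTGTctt
Ube2d3: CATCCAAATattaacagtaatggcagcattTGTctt
Ube2j1: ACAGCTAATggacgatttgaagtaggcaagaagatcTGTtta
Ube2j2: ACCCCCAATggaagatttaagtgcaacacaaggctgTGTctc

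These bases lie at coding positions 226 to 261 of Ube2l3, 223 to 258 of Ube2d1 and Ube2d3, 235 to 276 of Ube2j1 and 280 to 321 of Ube2j2, counted from the start codon. Ube2d1 and Ube2d3 differed at 6 of the 36 bases, and Ube2l3 differed from Ube2d1 at 15 and from Ube2d3 at 17. Ube2j1 and Ube2j2 differed at 18 of 42 bases. Over their whole coding sequence Ube2d1 and Ube2d2a were 76.0% identical, and Ube2a and Ube2b 77.6% identical. Ube2d2a and Ube2d2b were 92.7% identical, and Ube2d2b had no count in any library. For 8 of the 59 members more than 10% of the 100-base stretches were shared with another gene, so that their counts are uncertain. These were Ube2v1, Ube2h, Ube2l3, Ube2e1, Ube2q2, Ube3a, Hectd2 and Herc6.

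Of the 59 members, 50 had enough counts to be tested (29 Ube2 genes and 21 HECT genes). One of the 29, Ube2cbp, matches the naming rule but encodes an E2-binding protein and no conjugating enzyme (log2 fold change -0.37, 95% interval -1.40 to 0.65). No member of either family passed a Benjamini-Hochberg adjusted p of 0.05 in the quasi-likelihood F test of edgeR, where 0.945% of all 13115 tested genes did (0.48% lower and 0.465% higher in knockout). At an unadjusted p under 0.05 the same edgeR test gave 3 Ube2 genes, all lower in knockout (Ube2j1, Ube2z and Ube2b), and 3 HECT genes, of which Herc6 and Hectd4 were higher and Smurf2 lower. That is 6 of 50 members, against 16.7% of all genes (8.27% lower and 8.45% higher). DESeq2 called 1 member, Ube2j1 (4.62% of all genes), and limma-voom called none (0.64%). With the replicate number as a block, edgeR called 1 member, Ube2j1, which was lower (5.99% of all genes, 2.58% lower and 3.4% higher). The labels give no such pairing, which was assumed from these same counts.

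The estimates were close to no change for nearly all members. The log2 fold change was under 0.5 in size for 27 of 29 Ube2 genes and 20 of 21 HECT genes, against 75.7% of all tested genes. For the same numbers of members, 27 and 20, the 95% interval lay within a 2-fold change in either direction, against 7801 of all 13115 tested genes. The median standard error was 0.16 in each family and 0.22 over all tested genes. The exceptions on the first measure were Ube2j1, Ube2l6 and Herc6. The plot of fold changes by gene gives the estimates with their intervals. Directions are those under composition scaling. With library totals the median of all genes moved from 0.02 to 0.43, and every tested member below 0 turned above it except Ube2j1 (-0.15).

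**Figure D1:**
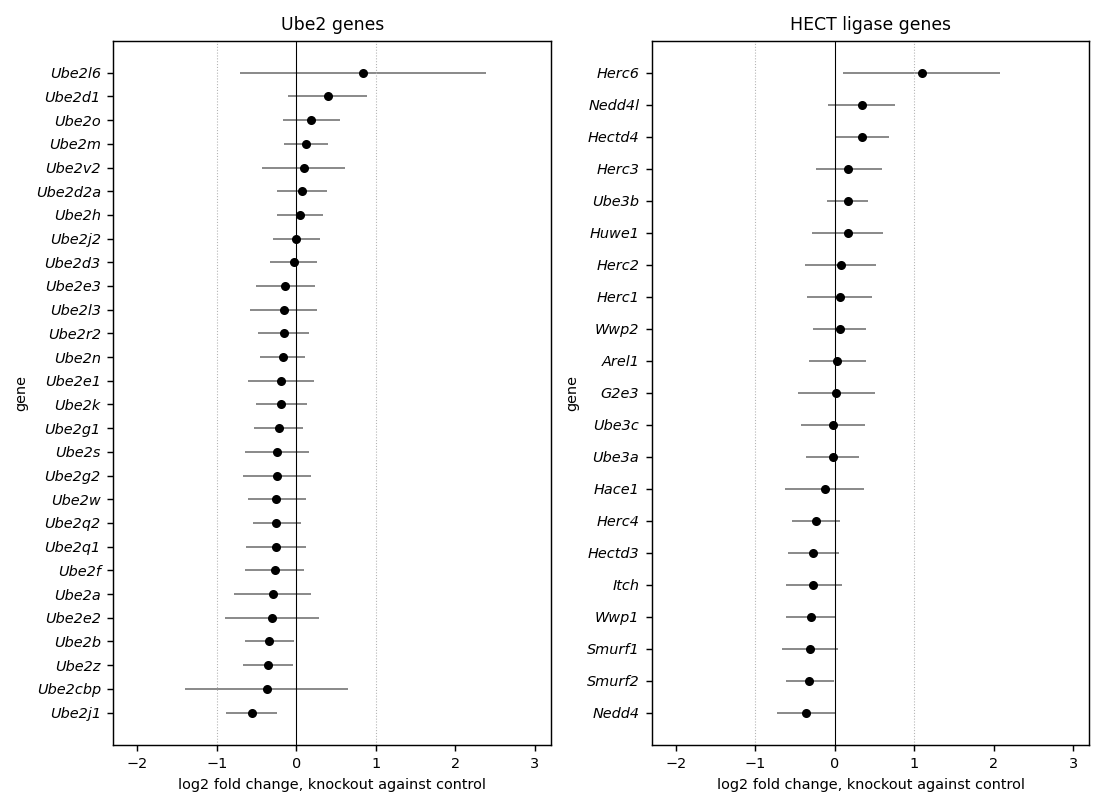
Log2 fold change of the tested Ube2 genes, 1 of them not shown (left), and of each tested HECT gene (right) in knockout against control, with its 95% interval from edgeR, and dotted lines at a 2-fold change. Most points lie within 0.5 of zero, with Ube2j1 lowest among Ube2 genes at -0.56 and Herc6 highest among HECT genes at 1.09.

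The ER-bound E2 enzymes held the one member called by any fit that kept composition scaling. Ube2j1 (ENSMUSG00000028277, on chromosome 4 in the GRCm38 annotation) encodes an E2 that serves the degradation of misfolded ER proteins. Among Ube2 genes it ranked 2 per kilobase of exon and 5 per kilobase of the principal transcript. It lay at 36.2, 38.7 and 41.6 CPM in the controls and 22.6, 28.6 and 27.7 CPM in the knockouts. Every knockout library lay below every control. The means were 38.8 CPM ± 2.68 (SD, n = 3) and 26.3 CPM ± 3.23, so the knockout level was 67.7% of control. That gave a log2 fold change of -0.56 (standard error 0.14, 95% interval -0.88 to -0.24), with an adjusted p of 0.107 by edgeR. With the replicate block the log2 fold change was -0.57 and edgeR's adjusted p 0.0294. That call was lost when pair 1 (adjusted p 0.0917 in edgeR) or pair 2 (0.203) was left out and was kept without pair 3 (0.0433). Against the 1 male control, through a sex term, the log2 fold change was -0.46 with an edgeR adjusted p of 0.424.

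Ube2j2, the gene paired with it above, lay at one level in both groups. This other tail-anchored E2 of the ER membrane, had 12.5, 14.0 and 16.2 CPM in the controls and 14.1, 14.2 and 14.5 CPM in the knockouts. The 3 knockout values fell inside the control range. Its log2 fold change was 0.00, with a 95% interval from -0.30 to 0.30. The difference between the fold changes of Ube2j1 and Ube2j2 was not tested. The remaining E2 enzymes that act with ER ligases were Ube2g1 and Ube2g2. Ube2g1 had 18.5, 21.5 and 23.9 CPM in the controls and 19.0, 17.6 and 18.3 CPM in the knockouts, and Ube2g2 averaged 13.3 CPM ± 2.64 and 11.2 CPM ± 1.90. Both pairs of groups overlapped, with log2 fold changes of -0.22 and -0.24, which were -0.02 and 0.14 with a sex term.

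**Figure D2:**
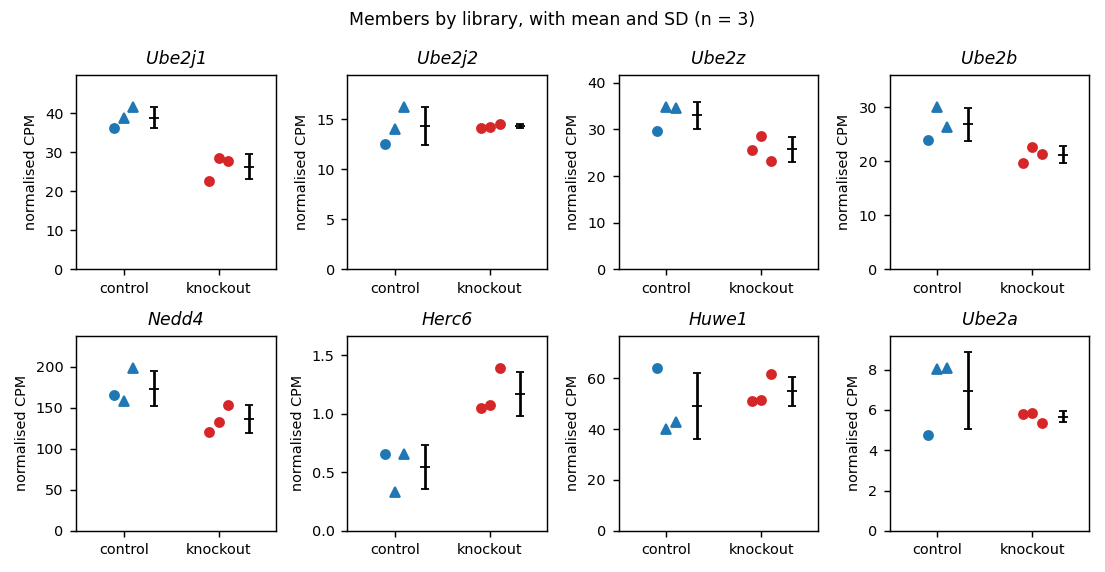
Normalised CPM in each library for 8 members, with controls in blue and knockouts in red, triangles for the 2 Xist-positive libraries, and the mean and SD of each group beside the points (n = 3). Ube2j1, Ube2z, Ube2b and Nedd4 have all knockouts below all controls, Herc6 has all knockouts above, and Ube2j2, Huwe1 and Ube2a overlap.

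The next group of 9 tested E2 genes holds broadly acting E2 enzymes as well as partners of HECT ligases. None of them was called by edgeR under composition scaling. Ube2d3, a broadly acting E2, had 66.6, 71.8 and 67.8 CPM in the controls and 64.6, 70.8 and 65.9 CPM in the knockouts. Its groups overlapped almost completely, and its log2 fold change was -0.03 with a 95% interval from -0.33 to 0.26. Ube2l3, an E2 that works with HECT and RBR ligases and not with ordinary RING ligases, had 13.0, 19.3 and 13.4 CPM in the controls and 12.5, 12.5 and 15.8 CPM in the knockouts. Only control replicate 2 stood above the other libraries, and the log2 fold change was -0.16 (95% interval -0.58 to 0.26). Ube2l3 is uncertain, since 30.0% of its 100-base stretches were shared, mainly with Ydjc on the opposite strand, and the counts ignore strand.

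The other Ube2d genes overlapped between groups too. Ube2d2a had 11.9, 14.9 and 14.9 CPM in the controls and 14.1, 15.4 and 14.3 CPM in the knockouts, a log2 fold change of 0.07. Ube2d1 had 2.74, 3.04 and 2.58 CPM in the controls and 4.29, 2.94 and 3.78 CPM in the knockouts. Its knockout replicate 2 lay within the control range while the others lay above it, for a log2 fold change of 0.40 and an edgeR adjusted p of 0.408. Ube2h, which encodes the E2 of the CTLH ligase complex, had 35.3, 30.6 and 36.0 CPM in the controls and 34.7, 35.3 and 35.5 CPM in the knockouts, and 30.4% of its 100-base stretches were shared with other genes. The rest of this group, Ube2e1, Ube2e2, Ube2e3 and Ube2w, had log2 fold changes from -0.31 to -0.14. With a sex term these were 0.13 for Ube2e1, -0.10 for Ube2e2, 0.16 for Ube2e3 and -0.09 for Ube2w. Ube2e2 alone of the 9 had all knockouts below all controls, and the median of the 9 was -0.14.

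The E2 enzymes that extend ubiquitin chains showed the same small differences. Ube2n, which with a Ube2v partner builds lysine-63 chains, had 9.39, 9.53 and 9.56 CPM in the controls and 8.58, 7.74 and 8.90 CPM in the knockouts. Its groups did not overlap, with a log2 fold change of -0.17 and an edgeR adjusted p of 0.539. Its partner Ube2v2 had a log2 fold change of 0.09, and those of Ube2k and Ube2r2 were -0.19 and -0.16, or 0.07 and 0.06 with a sex term.

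Among the E2 enzymes of DNA repair and the anaphase-promoting complex, Ube2b and Ube2a encode near-identical E2 enzymes that ubiquitinate PCNA and histone H2B. Ube2b had 24.0, 30.0 and 26.4 CPM in the controls and 19.6, 22.7 and 21.3 CPM in the knockouts. The groups did not overlap, and the means were 26.8 CPM ± 3.05 and 21.2 CPM ± 1.53. Its log2 fold change was -0.34 (standard error 0.13), at an adjusted p of 0.26 by edgeR. The male control was its lowest control, and the log2 fold change with a sex term was -0.18. X-linked Ube2a had 4.76, 8.05 and 8.07 CPM in the controls and 5.79, 5.85 and 5.36 CPM in the knockouts. Here the male control lay below all knockouts and both female controls lay above them, so the log2 fold change was -0.29 over all libraries and 0.25 with a sex term. Ube2s, which elongates chains on substrates of the anaphase-promoting complex, had a log2 fold change of -0.24.

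Ube2z, an E2 charged by the alternative activating enzyme Uba6, had 29.7, 34.8 and 34.6 CPM in the controls and 25.6, 28.6 and 23.2 CPM in the knockouts. All 3 knockouts lay below all 3 controls, at a mean of 25.8 CPM ± 2.68 against 33.0 CPM ± 2.91. This was a log2 fold change of -0.36 (standard error 0.14), with an edgeR adjusted p of 0.246. The male control was the lowest control, and the log2 fold change with a sex term was -0.20. Ube2q1 had 21.9, 27.2 and 26.7 CPM in the controls and 20.4, 25.3 and 17.7 CPM in the knockouts, and Ube2q2 had 17.8, 21.9 and 20.9 CPM against 16.8, 15.8 and 18.4 CPM. Both overlapped between groups, with log2 fold changes of -0.26 and -0.25, or -0.05 and -0.07 with a sex term. Ube2o, a very large enzyme that acts as E2 and ligase in one, had a log2 fold change of 0.19.

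The E2 enzymes of other modifiers went both ways. Ube2m and Ube2f pass NEDD8 to cullins. Ube2m had 13.0, 13.9 and 15.3 CPM in the controls and 15.2, 16.0 and 14.6 CPM in the knockouts, a log2 fold change of 0.12. Ube2f had 31.3, 45.5 and 40.7 CPM in the controls and 32.4, 31 and 33.7 CPM in the knockouts, a log2 fold change of -0.27. The male control sat within the knockout range for Ube2f, and the fold change with a sex term was 0.05.

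Ube2l6, the E2 for the interferon-induced modifier ISG15, had 0.913, 0.246 and 0.145 CPM in the controls and 1.05, 0.771 and 0.563 CPM in the knockouts. Herc6, the ISG15 ligase of mice, had 0.661, 0.329 and 0.654 CPM in the controls and 1.05, 1.08 and 1.39 CPM in the knockouts. Herc6 had every knockout above every control and Ube2l6 did not, since control replicate 1 lay within its knockout range. For Herc6 the log2 fold change was 1.09 (standard error 0.44, 95% interval 0.10 to 2.08), with an edgeR adjusted p of 0.261. That of Ube2l6 was 0.84 (standard error 0.68, adjusted p 0.603 in edgeR), and with a sex term it was -0.20. The activating enzyme of the same modifier, Uba7, had 4.85, 0.986 and 0.145 CPM in the controls and 5.33, 2.14 and 2.98 CPM in the knockouts. For Uba7 and Ube2l6, control replicates 2 and 3, which had low leukocyte marker sums, were the 2 lowest libraries. Knockout replicate 2 had the lowest leukocyte sum of all 6 libraries and exceeded both of them for Herc6, Ube2l6 and Uba7. Isg15, which encodes the modifier, had 0.598, 0.288 and 0.0727 CPM in the controls and 0.643, 0.2 and 0.456 CPM in the knockouts. Its groups overlapped, and knockout replicate 2 lay below control replicate 2. With a sex term the log2 fold change was 0.83 for Herc6, -0.48 for Uba7 and -0.46 for Isg15. The part of leukocytes in these values was not tested, and 10.3% of the 100-base stretches of Herc6 were shared with Gm45193 and other genes.

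**Figure D3:**
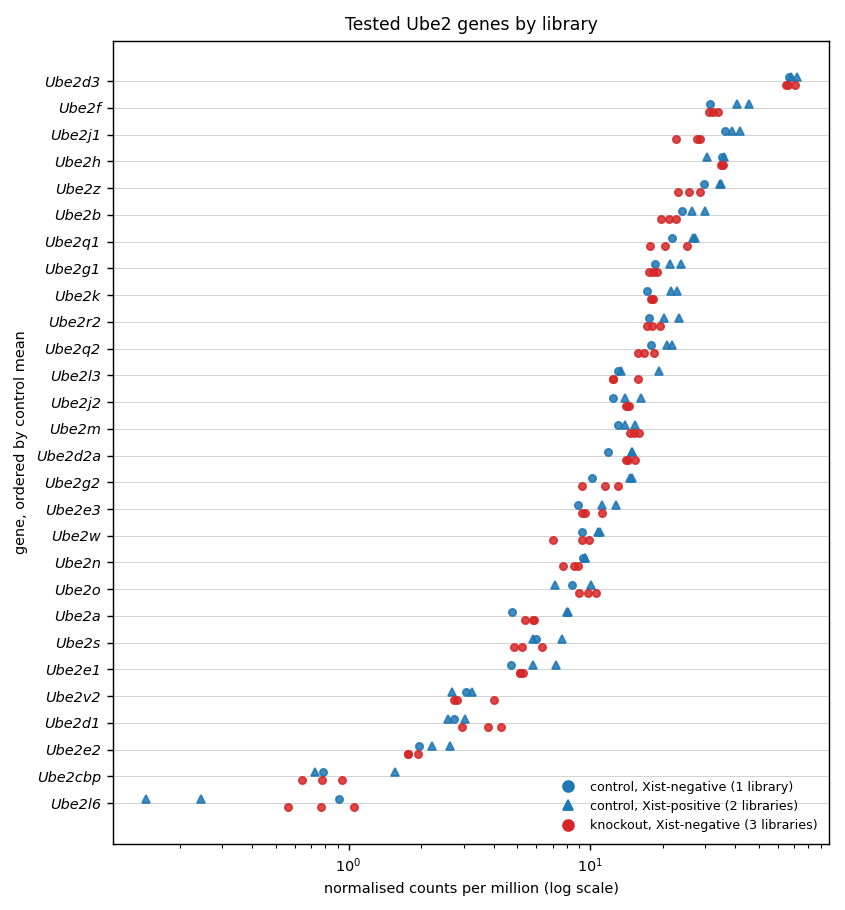
Normalised CPM (log scale) of the 29 tested Ube2 genes, 1 of them not shown, in each library, ordered by control mean, with controls in blue above knockouts in red and triangles for the 2 Xist-positive controls. Group means of the controls run from 0.435 CPM for Ube2l6 to 68.7 CPM for Ube2d3, and the blue circle of control replicate 1 is the lowest control for 21 genes.

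Among the HECT ligases, the NEDD4 family holds the members that bind PY motifs of membrane proteins and signalling proteins through WW domains. Nedd4 (ENSMUSG00000032216, on chromosome 9) had the highest level per kilobase of all HECT genes, and its CPM was 165, 158 and 198 CPM in the controls and 120, 133 and 153 CPM in the knockouts. Every knockout lay below every control, at 136 CPM ± 16.7 against 173 CPM ± 21.3 (SD, n = 3). Nedd4 thus had a log2 fold change of -0.36 (standard error 0.16, 95% interval -0.73 to 0.02) and an edgeR adjusted p of 0.323. Per kilobase of exon, Nedd4 held 37.2% ± 2.39 of the summed HECT level in control and 32.6% ± 1.5 in knockout, and it ranked first also on CPM and per kilobase of the principal transcript.

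Smurf2, Wwp1, Smurf1 and Itch lay lower by about as much under composition scaling, and all of them, like Nedd4, lay above 0 with library totals (0.06 to 0.15). Smurf2, which ubiquitinates receptors and SMADs of the TGF-beta pathway, had 13.9, 16.6 and 16.6 CPM in the controls and 11.8, 13.7 and 12.3 CPM in the knockouts, with a log2 fold change of -0.32 and an edgeR adjusted p of 0.279. Wwp1 had 15.5, 13.4 and 12.8 CPM in the controls and 10.3, 12.7 and 10.9 CPM in the knockouts, a log2 fold change of -0.30. Neither gene's groups overlapped. Smurf1 had 8.54, 9.32 and 7.63 CPM in the controls and 6.19, 7.79 and 6.57 CPM in the knockouts, a log2 fold change of -0.31. Itch, known from immune regulation, had 22.6, 21.2 and 29.2 CPM in the controls and 19.1, 19.1 and 22.4 CPM in the knockouts, a log2 fold change of -0.27. Both overlapped through a single knockout library each.

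The other two genes went the other way. Nedd4l, which limits epithelial sodium channels, had 4.91, 3.86 and 4.25 CPM in the controls and 6.41, 4.54 and 5.53 CPM in the knockouts, a log2 fold change of 0.34 with an edgeR adjusted p of 0.416. Wwp2 had a log2 fold change of 0.06. Over the 7 genes the median log2 fold change was -0.30, against 0.02 over all tested genes, and none passed the test. In 3 of the 7 all knockouts lay below all controls, where 10.9% of all tested genes did. For each of the 5 lower genes, picked as lower, the male control also lay above all 3 knockouts, as for 29.7% of all tested genes. It did so narrowly for Smurf2 (13.9 against 13.7 CPM) and Itch (22.6 against 22.4 CPM). With a sex term the log2 fold change was -0.28 for Nedd4, -0.14 for Smurf2 and -0.45 for Wwp1. It was -0.32 for Smurf1, -0.16 for Itch, 0.16 for Nedd4l and -0.05 for Wwp2.

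**Figure D4:**
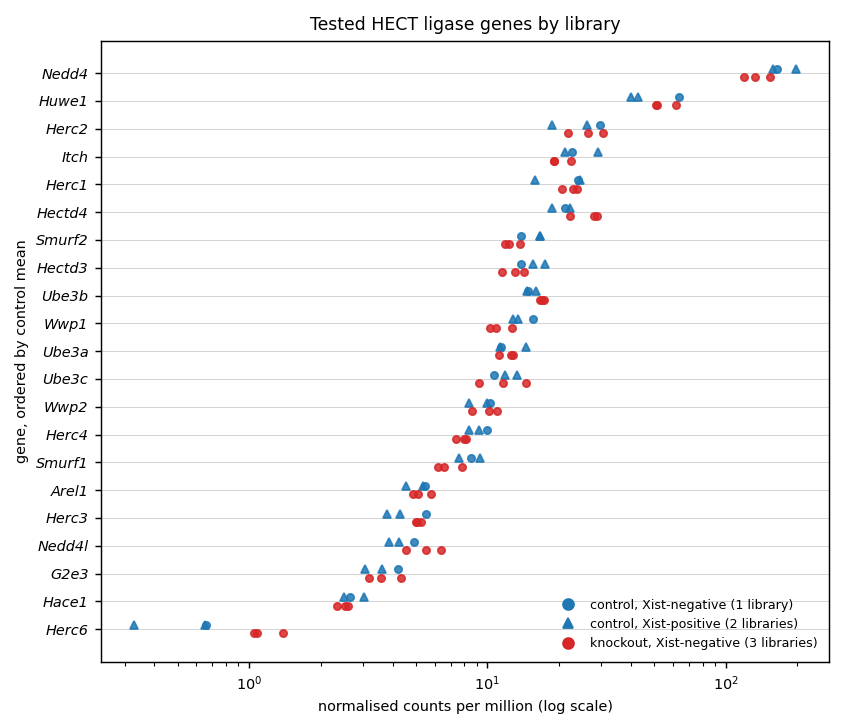
Normalised CPM (log scale) of the 21 tested HECT genes in each library, ordered by control mean, with controls in blue above knockouts in red and triangles for the 2 Xist-positive controls. Control means run from 0.548 CPM for Herc6 to 173 CPM for Nedd4, which stands apart from the rest.

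The HERC family, HECT ligases with RCC1-like repeats, was otherwise near zero. Herc1, Herc2 and Herc3 had log2 fold changes of 0.06, 0.08 and 0.17. Herc4 had 10.0, 8.38 and 9.20 CPM in the controls and 7.37, 8.11 and 7.97 CPM in the knockouts, without overlap, and a log2 fold change of -0.24. The median of the 5 HERC genes was 0.08.

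The remaining HECT ligases differ widely in their known roles. Hectd4 had 21.2, 18.6 and 22.3 CPM in the controls and 22.2, 27.9 and 28.8 CPM in the knockouts. Knockout replicate 1 lay just under the highest control, and the log2 fold change was 0.34 with an edgeR adjusted p of 0.285. Ube3b, linked to a developmental syndrome, had 14.8, 16.0 and 14.7 CPM in the controls and 16.6, 17.3 and 17.0 CPM in the knockouts. Its groups did not overlap, yet the log2 fold change was 0.16 with an edgeR adjusted p of 0.537. Hectd3 had 13.9, 17.4 and 15.6 CPM in the controls and 11.5, 14.3 and 13.0 CPM in the knockouts, a log2 fold change of -0.27.

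Ube3a, the ligase of Angelman syndrome, had a log2 fold change of -0.03, and 21.9% of its 100-base stretches were shared, with Snhg14 on the opposite strand among the overlapping genes. Ube3c, Arel1, G2e3 and Hace1 lay between -0.13 and 0.03. X-linked Huwe1, a large ligase of p53, Myc and Mcl1, had 63.9, 40.1 and 42.9 CPM in the controls and 51.2, 51.5 and 61.6 CPM in the knockouts. The male control was the highest of all 6 libraries, both female controls were the lowest, and the log2 fold change was 0.16 over all libraries and -0.22 with a sex term. Over these 9 tested genes the median log2 fold change was 0.02.

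Seen as whole families under composition scaling, Ube2 genes sat slightly lower in knockout relative to all genes, and HECT genes did not. The log2 fold change was below 0 for 20 of 29 Ube2 genes, with a median of -0.19, and for 10 of 21 HECT genes, with a median of 0.02. Over all tested genes 47.6% were below 0 and the median was 0.02. All knockouts lay below all controls for 5 Ube2 genes and above for none, while 4 HECT genes lay below and 2 above, which makes 11 of 50 members. Of all tested genes, 22.9% did not overlap, 10.9% below and 12.0% above.

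The size of the Ube2 difference depended on control replicate 1. The median Ube2 gene lay at -0.17, 0.08 and 0.09 on the log2 CPM scale in control replicates 1 to 3, relative to the control mean, and at -0.18, -0.12 and -0.16 in the knockouts. Control replicate 1, the male control, thus lay among the knockouts and not with the other controls. Relative to it the Ube2 median was -0.02, 0.08 and 0.01 in the knockouts and 0.23 in both female controls. With a sex term the median log2 fold change of Ube2 genes was 0.01, and without control replicate 1 it was -0.31. Control replicate 1 was the lowest control for 21 of 29 Ube2 genes, against 36.4% of all tested genes. It also had the lowest acinar marker sum of the controls, the nearest to those of the knockouts. The parts of sex and of acinar marker level in this order were not tested.

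The HECT genes ordered the libraries differently. Their median was 0.10, -0.13 and 0.07 in the controls and -0.11, -0.04 and 0.10 in the knockouts, so that the groups overlapped. Control replicate 1 was the lowest control for 3 of 21 HECT genes. All 3 knockouts lay below it for 10 of 21, against 29.7% of all tested genes, and the median HECT log2 fold change with a sex term was -0.10.

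**Figure D5:**
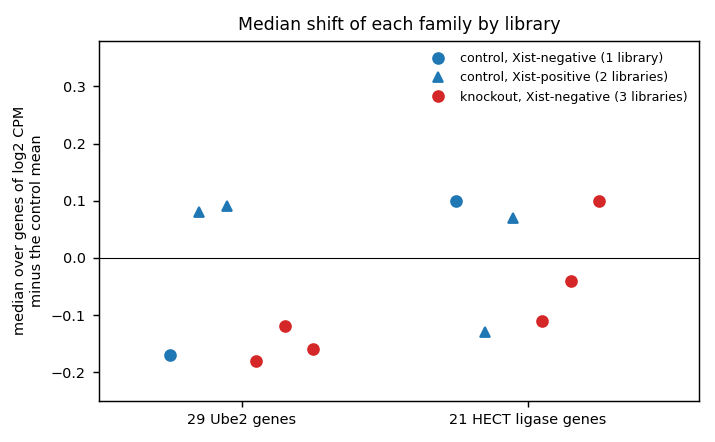
Median over the 29 tested Ube2 genes and the 21 tested HECT genes of log2 CPM minus the control mean, 1 point per library, with controls in blue, knockouts in red and triangles for the 2 Xist-positive controls. For Ube2 genes the male control (blue circle, -0.17) lies with the knockouts (-0.18 to -0.12), and for HECT genes the groups overlap.

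With library totals in place of composition factors the family medians turned with the median of all genes. They became 0.24 for Ube2 genes and 0.42 for HECT genes. Relative to all genes they were -0.19 and -0.01, close to the -0.21 and 0.00 of the main scaling. The NEDD4 family median became 0.11, which is -0.32 relative to all genes and the same as before. On that scale edgeR called Ube2d2a, Ube2m, Hectd4 and Ube3b higher, where 11.6% of all genes were called, and Ube2j1 was not called (log2 fold change -0.15).

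Levels differed far more between members than between genotypes. Per kilobase of exon, the tested Ube2 genes ran from 0.218 to 12.6 CPM in control with a median of 2.81, and the HECT genes from 0.059 to 15.8 CPM with a median of 1.25. The highest Ube2 genes on that scale were Ube2b (12.6 ± 1.43 CPM per kilobase), Ube2j1 (11.0 ± 0.760), Ube2z (8.26 ± 0.727), Ube2h (7.11 ± 0.610) and Ube2m (5.96 ± 0.489). Ube2b and Ube2j1 differed by less than the sum of their SDs, as did Ube2z and Ube2h, whereas Ube2j1 stood further above Ube2z. The highest HECT genes were Nedd4 (15.8 ± 1.94), Hectd3 (3.19 ± 0.360), Ube3b (2.87 ± 0.131), Smurf2 (2.55 ± 0.257) and Itch (2.50 ± 0.439). Nedd4 stood clear of the others, while each of the next 4 differed from its neighbour by less than the sum of their SDs. The order of Ube2 genes rests on the length used. Ube2d3 ranked 15 per kilobase of all annotated exons and 2 per kilobase of its principal transcript.

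The 9 untested members were at or near the limit of detection. Ube2d2b, Ube2dnl1 and Ube2dnl2 had no count in any library, which allows up to 3 counts in each. Ube2u had 1 count in a single library, and Ube2ql1 had 4, 1 and 1 counts in control and 1, 1 and 0 in knockout. Ube2v1 had at most 7 counts, and 58.0% of its 100-base stretches were shared, with Gm20431 among the genes that overlap it. Hectd2 had 7, 2 and 1 counts in control and 7, 3 and 2 in knockout.

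Ube2c and Ube2t, E2 genes of dividing cells, were in this untested class, while Ube2s was tested. Ube2c, which starts chains for the anaphase-promoting complex, had 20, 1 and 4 counts in control and 11, 2 and 8 in knockout. Ube2t, the E2 of the Fanconi anaemia pathway, had 1, 2 and 2 counts in control and 16, 6 and 17 in knockout. Its mean knockout level of 0.352 CPM was 3.23-fold the 0.109 CPM that 3 counts per control library would give. Knockout replicate 2 lay nearer to that floor, at 0.171 CPM, and the difference was not tested. Markers of cycling cells summed to 9.61, 1.11 and 1.93 CPM in the controls and 7.64, 2.31 and 6.09 CPM in the knockouts. Ube2c was highest in control replicate 1 and lowest in control replicate 2, as were those sums, and Ube2t was lowest in control replicate 1. The part of cycling cells in these counts was not tested.

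Other lists of ubiquitin pathway genes, which do not cover the whole pathway, gave as few calls. Of 58 genes in 7 lists (E1 enzymes, E2 enzymes with other names, ubiquitin genes, ubiquitin-like modifiers, RBR ligases, NEDD4 adaptors and HECT ligases outside the chosen set), 56 were tested, and none passed the edgeR test (0.945% of all genes). DESeq2 called 1 and limma-voom none. Their median log2 fold change was -0.05. At an unadjusted p under 0.05 the edgeR test gave 5 of them, 3 higher and 2 lower, against 16.7% of all genes (8.45% higher and 8.27% lower). None of the 3 tested HECT ligases outside the set passed. The main activating enzyme, X-linked Uba1, had 72.9, 68.4 and 69.1 CPM in the controls and 61.2, 60.7 and 77.0 CPM in the knockouts, a log2 fold change of -0.08.

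Cul9, a cullin with an RBR domain, was called with the replicate block. It had 6.84, 7.80 and 5.38 CPM in the controls and 10.0, 11.2 and 8.13 CPM in the knockouts, all above the controls. Its log2 fold change was 0.55 with an edgeR adjusted p of 0.191, and 0.046 with the replicate block, which called 5.99% of all genes. That call was lost whichever of the 3 pairs was left out of the block.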

How the data were processed

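Per the labels, poly-A RNA of 6 acinar cell preparations was sequenced. The authors deposited raw gene counts, unstranded and per strand, made with STAR 2.7.10a on build GRCm39, per the submitters' processing notes. Multi-mapped reads (21.6% to 28.4%), unmapped reads (9.70% to 13.0%), reads outside genes (0.893% to 2.18%) and ambiguous reads (3.29% to 3.63%) belong to no gene and stayed out. Forward counts made up 50.1% to 50.3%, so unstranded counts were used, which cannot tell antisense genes apart. Names, lengths and coding sequences came from GENCODE M21 (GRCm38, 94.1% of identifiers), and no coordinates are given because the builds differ.

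Genes passing filterByExpr were fitted with edgeR 4.0.16 (TMM factors, robust quasi-likelihood F test, Benjamini-Hochberg over 13115 genes), checked on simulated data. The standard error is the log2 fold change over the root of F. At most 3 counts is the floor, and log2 CPM uses a prior count of 2. DESeq2 1.42.0, limma 3.58.1 (voom), other scalings, filters and strands, a sex term, the replicate block and leaving out libraries were alternatives. Dropping pairs from the block and the principal transcript length were chosen after seeing the data.

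Deviations from group means correlated at 0.63, 0.455 and 0.285 in same-numbered pairs and at -0.496 to 0.21 in others. All 3 exceeded 0.1, and on this ground alone the numbers were taken to pair the samples. The ground comes from the same counts, so results with the replicate block rest on an assumed pairing. All libraries differed by more than counting error. Members and lists were chosen with earlier results of these data known. The naming rule took members called without or with the block, the 8 smallest p and the 5 highest levels per kilobase in each family, Ube2l3 and Ube2d genes, and called or X-linked pathway genes. Other genes were named after their values were seen. A few genes are not reported here.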

Additional observations from a re-analysis of the deposited data

How the results depend on the processing

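Of 20 alternatives, those that moved a main result or turned a member named by rule are given. The count of called Ube2 genes, 0 as reported, was 1 (Ube2j1) with the replicate block, with DESeq2 and without a filter, and 2 with library totals. It ran from 0 to 1 when a pair was left out of the block. For HECT genes it was 0 as reported and 2 with library totals. For the other pathway genes it was 1 with the replicate block (Cul9), with DESeq2 and without a filter (Arrdc2), and 5 with library totals. Of all genes, 5.99% were called with the block, 4.62% with DESeq2, 850 of 25772 without a filter and 11.6% with library totals. The block changed no other call of a member or pathway gene. The Ube2 median log2 fold change was 0.24 with library totals, -0.10 on the reverse strand and 0.01 with a sex term, and -0.31 to -0.10 with libraries or pairs left out. Relative to all genes it was -0.12, 0.01 and -0.35 to -0.12 in the last 3 of these. The HECT median was 0.42 with library totals and -0.10 with a sex term (-0.10 relative to all genes). Trip12, at -0.89 (adjusted p 0.0256, edgeR), lost its call with library totals (-0.49, 0.125) and a sex term (-1.05, 0.0941), and ranged from -1.02 to -0.81 with libraries or pairs left out. Its call was lost in 5 of 6 fits without 1 library and held without control replicate 1. Of the 24 members named by rule, the sign turned with library totals for Hectd3 (0.15), Itch (0.15), Nedd4 (0.06), Smurf1 (0.10), Smurf2 (0.11), Wwp1 (0.10), Ube2b (0.09), Ube2d3 (0.38), Ube2f (0.16), Ube2g1 (0.21), Ube2l3 (0.27), Ube2q1 (0.17), Ube2q2 (0.18) and Ube2z (0.07), where all genes moved to 0.43. Among the same 24 it turned with a sex term for Ube2d3 (0.01), Ube2f (0.05), Ube2h (-0.00) and Ube2l3 (0.06), on the reverse strand for Ube2d2a (-0.02) and Ube2d3 (0.01), and on the forward strand for Ube2h (-0.02). With libraries or pairs left out, Ube2d2a ranged from -0.06 to 0.15, Ube2h from -0.02 to 0.09 and Ube2l3 from -0.34 to 0.09. Other causes were not tested. The Nedd4 share was 44.0% per kilobase of principal transcript, and the Ube2d3 share of Ube2 level, 2.67% per exonic kilobase, was 9.71% there and 13.6% on CPM. Where a group is left with fewer libraries, the remaining ones are assumed to vary like the other group. Depth limits members under about 10 counts, whose differences were not detectable.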

Other observations

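Among the genes that encode ubiquitin itself, none was called by edgeR under composition scaling. With library totals edgeR called Rps27a and Ubb higher (adjusted p 0.0352 and 0.0404), where 11.0% of all genes were called higher. Rps27a, which encodes ubiquitin fused to a ribosomal protein, had 155, 206 and 212 CPM in the controls and 188, 203 and 189 CPM in the knockouts, with a log2 fold change of 0.02. Ubb, a stress-inducible polyubiquitin gene, had 151, 147 and 161 CPM in the controls and 172, 163 and 181 CPM in the knockouts. All 3 knockouts of Ubb lay above all controls, at a log2 fold change of 0.16 (adjusted p 0.624, edgeR).

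Adaptors that bring NEDD4 ligases to membranes were measured beside their ligases. Ndfip2 had 12.3, 17.1 and 19.5 CPM in the controls and 11.7, 13.4 and 14.8 CPM in the knockouts, a log2 fold change of -0.29 with an edgeR adjusted p of 0.479. Arrdc1, an arrestin-domain adaptor, had 4.28, 5.83 and 4.83 CPM in the controls and 6.92, 7.76 and 6.41 CPM in the knockouts. All its knockouts lay above all controls, at a log2 fold change of 0.50 (adjusted p 0.199, edgeR). Over the 10 adaptors the median log2 fold change was -0.11, and none was called by edgeR in the main test. With library totals Arrdc1 was called higher (adjusted p 0.0231, edgeR), as were 11.0% of all genes. Without a filter on low counts Arrdc2 was called lower, where 850 of 25772 genes were called in either direction.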
